A study of Mus musculus with 10 samples.

Results

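The miR-29 family of mouse retina is described here through its 7 mature miRNAs: the 3p arms miR-29c-3p, miR-29a-3p and miR-29b-3p, and the 5p arms miR-29c-5p, miR-29a-5p, miR-29b-2-5p and miR-29b-1-5p. They were taken by name from a table of 1061 mature miRNAs, and all 7 were found in it. The 10 libraries came from 5 right and 5 left retinas of wild type C57BL/6J mice at postnatal day 34, with both eyes of mice 61, 64, 65, 66 and 68. In each animal a goggle with a -20 D lens had been fixed over 1 eye at postnatal day 24 and worn for 10 days, a treatment that induces myopia, while the other eye had no lens. All 10 libraries therefore belong to animals that had been anesthetized with ketamine and xylazine and fitted with a goggle. Which eye of an animal wore the lens is not stated in the labels, which give only right or left. Right was therefore set against left within a mouse, and an effect of the lens would partly cancel in the mean if it had been worn on different sides in different mice.

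A miRNA gene gives a hairpin precursor, from which an arm on its 5′ side and an arm on its 3′ side are cut. Usually 1 arm is kept in an Argonaute protein and pairs through its seed, bases 2 to 8, with sites in the 3′ UTRs of mRNAs, which are then less stable and less translated. In the miR-29 family the 3p arm is the guide that is kept. The family is known for repressing collagens, elastin and fibrillin in fibroblasts, DNA methyltransferases in cancer cells, and pro-death BH3-only proteins in maturing mouse neurons.

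The 7 mature sequences are shown first because the family is defined by a shared seed and its members differ in only a few other bases. All are RefSeq sequences on the GRCm38.p6 build, written 5′ to 3′ with the seed in capitals.
mmu-miR-29c-3p: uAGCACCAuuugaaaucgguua
mmu-miR-29a-3p: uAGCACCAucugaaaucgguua
mmu-miR-29b-3p: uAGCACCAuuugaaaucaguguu
mmu-miR-29c-5p: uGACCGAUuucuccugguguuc
mmu-miR-29a-5p: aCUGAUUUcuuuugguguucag
mmu-miR-29b-2-5p: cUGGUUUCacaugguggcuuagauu
mmu-miR-29b-1-5p: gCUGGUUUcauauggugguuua

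The 3p arms carry the same seed, AGCACCA, and no other matched miRNA of the table does: of 909 miRNAs whose sequence could be matched, these 3 had it. With positions counted from 1 at the 5′ end, miR-29c-3p and miR-29a-3p differ in 1 of 22 bases (U10C, the base of miR-29c-3p first). miR-29c-3p and miR-29b-3p differ in 3 bases (G18A, U21G and A22U), and miR-29b-3p is 1 base longer. The 3′ end of miR-29b-3p is the hexamer AGUGUU, which in human cells was shown to send this miRNA to the nucleus. Searched as the last 6 letters of the mature strand, the hexamer ends 2 of the 1679 mature miRNAs in the RefSeq table (0.119%), miR-29b-3p and miR-92b-5p, and it occurs in no other member. The 5p arms have 4 different seeds, none of which another matched miRNA of the table carries. The arms of miR-29b-1-5p and miR-29b-2-5p start 1 base apart in a similar sequence, so that the seed of the second is that of the first moved by 1 position.

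The 4 hairpins lie in 2 pairs. Mir29a (chr6:31062660-31062747) and Mir29b-1 (chr6:31063023-31063093) are 275 bases apart on the minus strand. Mir29a overlaps no other annotated gene, and the end of Mir29b-1 touches the exon of the lincRNA Gm27019. Mir29b-2 (chr1:195037040-195037120) and Mir29c (chr1:195037547-195037634) are 426 bases apart on the plus strand, in an exon of the long non-coding transcript A330023F24Rik. On the other strand that stretch is an annotated UTR at the 3′ end of Cd46, which encodes a complement regulator. The chromosome 6 hairpins are shown to place the arms within their precursors, with the 5p and then the 3p arm in capitals.
Mir29a: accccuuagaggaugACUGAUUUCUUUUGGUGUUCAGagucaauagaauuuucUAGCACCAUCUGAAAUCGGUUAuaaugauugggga
Mir29b-1: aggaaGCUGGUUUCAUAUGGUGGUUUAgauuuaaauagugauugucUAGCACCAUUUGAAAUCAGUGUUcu

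Mir29b-1 and Mir29b-2 give the same 3p sequence. The table holds it in 1 row, placed on chromosome 1, so the reads of miR-29b-3p cannot be divided between the loci, whereas the 5p arms tell them apart.

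The deposited values were normalised read counts with nearly equal totals in every library, from 17312269 to 17312436, so the sequencing depth is unknown. Identical values recur across libraries because many ranks hold a common value: 97 of the top 100 ranks, and 180 of all ranks above 0, had 1 value in all libraries, whereas at lower ranks the values differ between libraries. For example, miR-29a-3p was at 2699 normalised reads both in the right retina of mouse 61 and in the left retina of mouse 65, where it held rank 78 in both. The library method favours some sequences over others in ligation, so a level compares a miRNA between libraries better than it compares miRNAs. The tissue label was checked against miRNAs of known cell types: the photoreceptor miR-182-5p was the most abundant of all, at 9840430 normalised reads in all libraries, and the neuronal miR-124-3p was at 82771 ± 3289 in right and 81711 ± 4510 in left retina (SD, n = 5). The muscle miRNA miR-1a-3p was at 4.30 ± 2.88 in right and 6.66 ± 11.3 in left retina, and the red cell miRNA miR-451a at 46.8 ± 9.03 in right and 50.4 ± 18.4 in left retina (SD, n = 5). The other red cell miRNAs listed lay on both sides of it. miR-486a-5p was at 3341 ± 678 in right and 2686 ± 189 in left retina, and miR-144-3p at 8.61 ± 2.22 and 14.5 ± 7.34 (SD, n = 5). The left retina of mouse 68 stood apart in the muscle miRNA miR-133a-3p, at 1596 normalised reads, against 241 to 359 in the right and 273 to 331 in the other left retinas. The other muscle miRNAs listed were also highest in that library, miR-133b-3p at 113, miR-1a-3p at 26.6 and miR-206-3p at 6.29. In the other left retinas miR-1a-3p lay between 0 and 4.1.

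The 3p arms made up nearly all of the family. Their sum was between 98.76% and 99.17% of the normalised reads of the 7 members in each library. The whole family summed to 10424 ± 1234 normalised reads in right and 11642 ± 1599 in left retina (SD, n = 5), which was between 0.0533% and 0.0771% of a library's total.

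miR-29c-3p was the most abundant member. It had 6629, 6309, 8618, 8035 and 6491 normalised reads in the right retinas of mice 61, 64, 65, 66 and 68, and 8350, 8350, 6309, 9068 and 7309 in the left retinas. The sides overlapped over most of their range, with the highest value on the left in mouse 66 and the lowest shared by the right retina of mouse 64 and the left of mouse 65. It held ranks 44 to 55 of 1061.

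miR-29a-3p had 2699, 3023, 3345, 2820 and 2820 normalised reads in the right retinas and 4642, 3480, 2699, 3169 and 3345 in the left, in the same order of mice. The left retina of mouse 61 stood above all others, and the other 9 libraries lay between 2699 and 3480. Its ranks were 64 to 78.

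miR-29b-3p, whose sequence is encoded at both loci, had 141, 155, 202, 137 and 147 normalised reads in the right retinas and 247, 221, 114, 176 and 200 in the left. In the right retinas mouse 65 was the highest and in the left retinas it was the lowest. Its ranks, 190 to 249, spread more than those of the other 3p arms.

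Among the 5p arms, miR-29c-5p had 33.0, 58.1, 37.8, 49.9 and 44.2 normalised reads in the right retinas and 48.9, 41.2, 42.7, 42.2 and 39.1 in the left. The left values lay inside the range of the right ones. miR-29a-5p had 38.5, 28, 44.2, 51.6 and 26.1 in the right and 45.8, 30.8, 33.9, 40.2 and 39.5 in the left retinas, again with the left values inside the right range. miR-29b-2-5p had 21.6, 31.0, 25.6, 32.2 and 21.2 in the right and 16, 29.3, 34.1, 28.5 and 12.5 in the left retinas, and here the right values lay inside the left range. These 3 arms come from hairpins on both chromosomes, and all stood at ranks between 303 and 465.

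miR-29b-1-5p was the lowest member. It lay between 0.150 and 4.20 normalised reads in the right retinas and between 4.32e-13 and 2.54 in the left, with ranks from 587 to 895. A value such as 4.32e-13, in the left retina of mouse 61, need not mean detection, so the table gives little evidence on this arm.

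**Figure D1:**
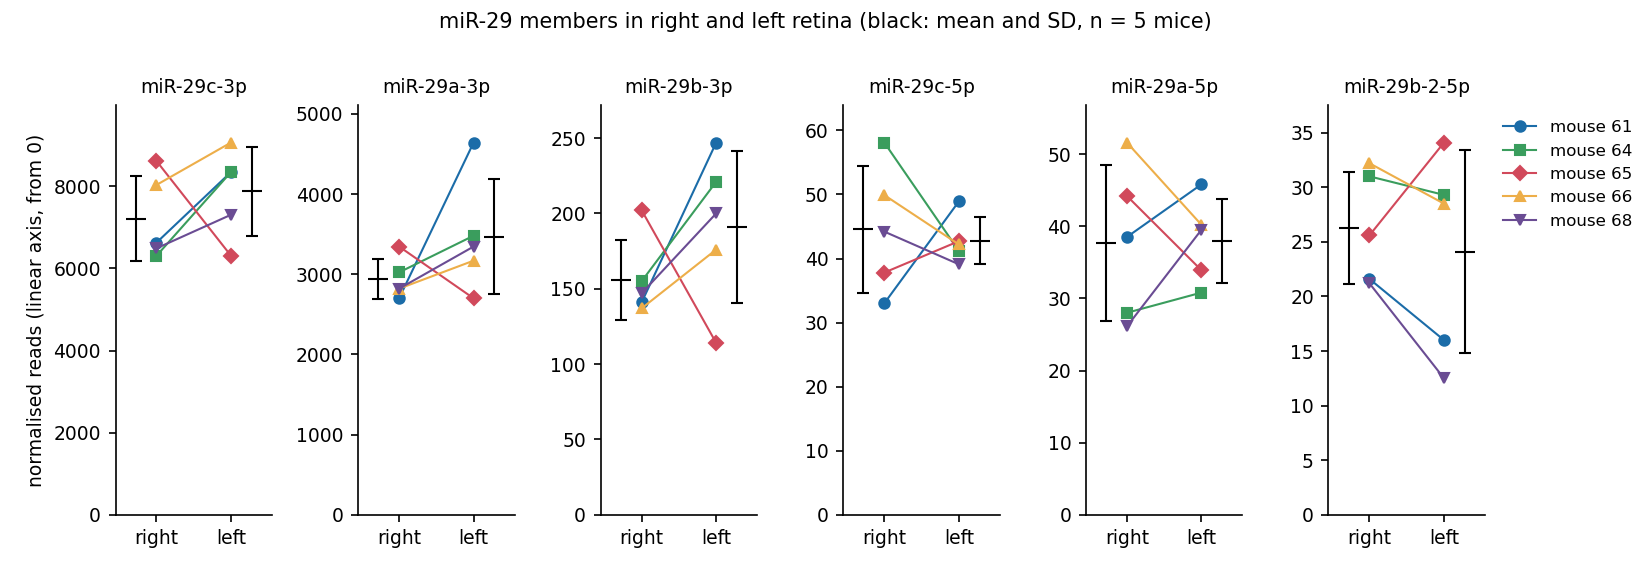
Normalised reads (linear axes from 0, a scale for each panel) of the 6 members with a mean of at least 10, in right and left retina; coloured lines join the eyes of a mouse, and black bars are the mean and SD of 5 retinas. In each 3p panel the right retina is the lower one in 4 mice and the higher one in mouse 65. The panel of miR-29b-2-5p shows the opposite, with the right retina higher in 4 mice and lower in mouse 65, and the other 5p panels show 3 mice one way and 2 the other.

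The order of the levels held in all libraries for the 3p arms. miR-29c-3p was above miR-29a-3p in 10 of 10 libraries, by 1.80 to 2.86 times (median 2.37). miR-29a-3p was above miR-29b-3p in 10 of 10, by 15.8 to 23.7 times (median 19.0). miR-29b-3p was above each of the 5p arms in 10 of 10, with its lowest value, 114, above the highest of any 5p arm, 58.1. miR-29c-5p and miR-29a-5p did not differ beyond their spread, at 43.7 ± 7.10 and 37.9 ± 8.16 normalised reads (SD over 10 libraries), and the first was higher in 6 of 10 libraries. miR-29a-5p was above miR-29b-2-5p (25.2 ± 7.18) in 8 of 10 libraries, and their ranges overlapped. miR-29b-2-5p was above miR-29b-1-5p in 10 of 10.

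The ratio of the arms differed between hairpins. In mir-29c the 3p arm was 109 to 228 times the 5p arm (median 179), in mir-29a 54.7 to 113 times (median 82.2), and for miR-29b-3p over miR-29b-2-5p 3.34 to 15.9 times (median 6.71). Since miR-29b-3p may also come from Mir29b-1, the last ratio is an upper value for the mir-29b-2 hairpin. On the log2(value + 1) scale, the 3p-to-5p ratio of mir-29c was 7.32 ± 0.41 in right and 7.48 ± 0.21 in left retina, and that of mir-29a was 6.29 ± 0.41 in right and 6.46 ± 0.23 in left retina (SD, n = 5). For mir-29b-2 it was 2.53 ± 0.36 in right and 2.99 ± 0.92 in left retina (SD, n = 5). The ratio taken with miR-29b-1-5p, 6.16 ± 1.11 in right and 6.52 ± 1.09 in left retina (SD, n = 5), rests on a 5p arm near 0 and on the pseudocount of 1.

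**Figure D2:**
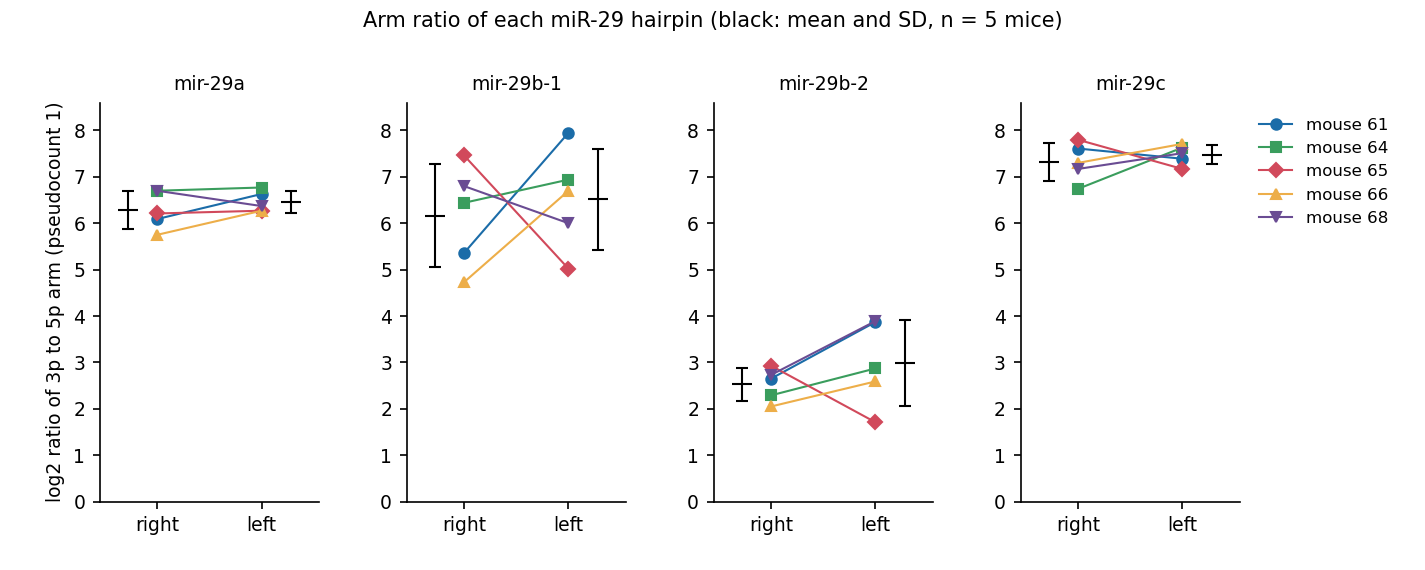
Log2 ratio of the 3p to the 5p arm, with a pseudocount of 1, for each hairpin in right and left retina; lines join the eyes of a mouse, and black bars are the mean and SD of 5 retinas. mir-29b-1 and mir-29b-2 share the 3p value, and the mir-29b-2 ratios, 1.71 to 3.89, lie below all others.

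No arm ratio was shown to differ between the sides. They were compared by flipping the signs of the 5 mice in every combination, an exact two-sided test that cannot give a p below 0.0625. Right minus left, the log2 ratio of mir-29a differed by -0.17 ± 0.37 and was higher on the right in 1 of 5 mice (exact p = 0.312). That of mir-29b-2 differed by -0.46 ± 0.99, also with 1 of 5 mice higher on the right (exact p = 0.375). For mir-29c the difference was -0.16 ± 0.59, with 2 of 5 mice higher on the right (exact p = 0.562), and for mir-29b-1 it was -0.37 ± 2.05, with 2 of 5 (exact p = 0.75; SD over mice in each case). Adjusted over the 4 hairpins, every p was 0.75.

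The composition of the 3p pool differed between the sides by less than its spread over mice. miR-29c-3p held 69.8% ± 2.46 of the 3p sum in right and 68.4% ± 3.62 in left retina, miR-29a-3p 28.7% ± 2.35 in right and 30.0% ± 3.45 in left, and miR-29b-3p 1.52% ± 0.167 in right and 1.64% ± 0.287 in left retina (SD, n = 5). The differences of the shares, right minus left, were 1.43, -1.31 and -0.126 percentage points. The exact sign-flip test over 5 mice gave p = 0.438, 0.562 and 0.438, each 0.562 when adjusted over the 3 shares. The left retina of mouse 61 had the lowest share of miR-29c-3p, 63.1%, and the highest of miR-29a-3p, 35.1%. Without mouse 61 the differences were 0.0561 points for miR-29c-3p, 0.00602 for miR-29a-3p and -0.0621 for miR-29b-3p. Without mouse 64 they were 2.49 points for miR-29c-3p and -2.38 for miR-29a-3p, and without mouse 65 that of miR-29b-3p was -0.26.

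Right and left retina were then compared for levels, to see whether the family differs between the eyes of an animal in which 1 eye had worn the lens. The 3p arms were lower in the right retina of mice 61, 64, 66 and 68 and higher in that of mouse 65, and no member passed the test. Of the 484 miRNAs with a mean of at least 10 normalised reads, limma with mouse as a block called 0 (0%) past an adjusted p of 0.05, and none of the 6 members tested was among the 12 with an unadjusted p under 0.05. miR-29b-3p averaged 156 ± 26.6 normalised reads in right and 191 ± 50.6 in left retina (SD, n = 5), a log2 fold change of -0.26 with a 95% interval from -0.82 to 0.30 (limma adjusted p = 0.958; 4 of 5 mice had the lower value on the right). miR-29a-3p averaged 2941 ± 254 in right and 3467 ± 720 in left retina, a log2 fold change of -0.22 with an interval from -0.57 to 0.13 (limma adjusted p = 0.958). For miR-29c-3p, with 7217 ± 1040 in right and 7877 ± 1078 in left retina, it was -0.13 with an interval from -0.43 to 0.18 (limma adjusted p = 0.958).

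The 5p arms did not share a direction. miR-29b-2-5p had a log2 fold change of 0.20 (95% interval -0.26 to 0.65), with 26.3 ± 5.13 normalised reads in right and 24.1 ± 9.29 in left retina (SD, n = 5). miR-29c-5p had 0.03 (-0.37 to 0.44) with 44.6 ± 9.91 in right and 42.8 ± 3.65 in left retina, and miR-29a-5p had -0.05 (-0.46 to 0.37) with 37.7 ± 10.8 in right and 38.0 ± 5.84 in left retina. As folds, the intervals were 0.837 to 1.57 times for miR-29b-2-5p, 0.773 to 1.35 for miR-29c-5p and 0.727 to 1.29 for miR-29a-5p. For each arm, changes within its own interval are not told from no change here. The log2 fold changes of all 484 miRNAs had a median of -0.01 and quartiles of -0.10 and 0.09.

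**Figure D3:**
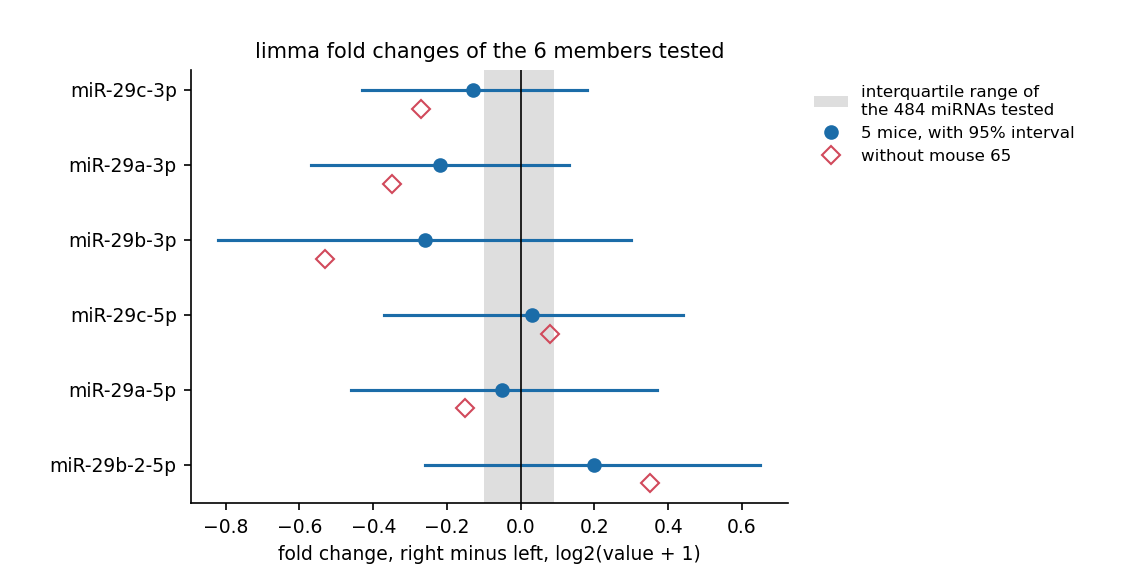
Fold change on the log2(value + 1) scale, right minus left, for the 6 members tested: blue points and bars are the limma estimate and its 95% interval over 5 mice, red diamonds the estimate without mouse 65, and the grey band the interquartile range of the 484 miRNAs tested. All 6 blue intervals include 0, and leaving out mouse 65 moves the 3p arms to between -0.53 and -0.27.

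Within each mouse the 3p arms went the same way. In mouse 61 the difference, right minus left on the log2(value + 1) scale, was -0.33 for miR-29c-3p, -0.78 for miR-29a-3p and -0.81 for miR-29b-3p. In mouse 65 it was 0.45, 0.31 and 0.82. The differences in mouse 64 were -0.40, -0.20 and -0.51, in mouse 66 -0.17, -0.17 and -0.37, and in mouse 68 -0.17, -0.25 and -0.44. miR-29b-3p thus had the largest difference of the 3p arms in each of the 5 mice. In mouse 61, 26 of the 484 miRNAs had a difference below that of miR-29b-3p, and in mouse 65, 29 had one above it.

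Of the 6 members tested, 3 were lower in the right retina of at least 4 mice, against 17.8% of all 484 miRNAs. In the other direction 1 of the 6, miR-29b-2-5p, was higher in the right retina of at least 4 mice, against 14.9% of all. None of the 6 had the same direction in all 5 mice, against 3.72% of all, and in none were the values of the sides apart, against 0.826% of all. The 3p members share a seed and most of their bases, and miR-29b-3p shares loci with both others, so they are not independent observations of a difference between eyes.

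**Figure D4:**
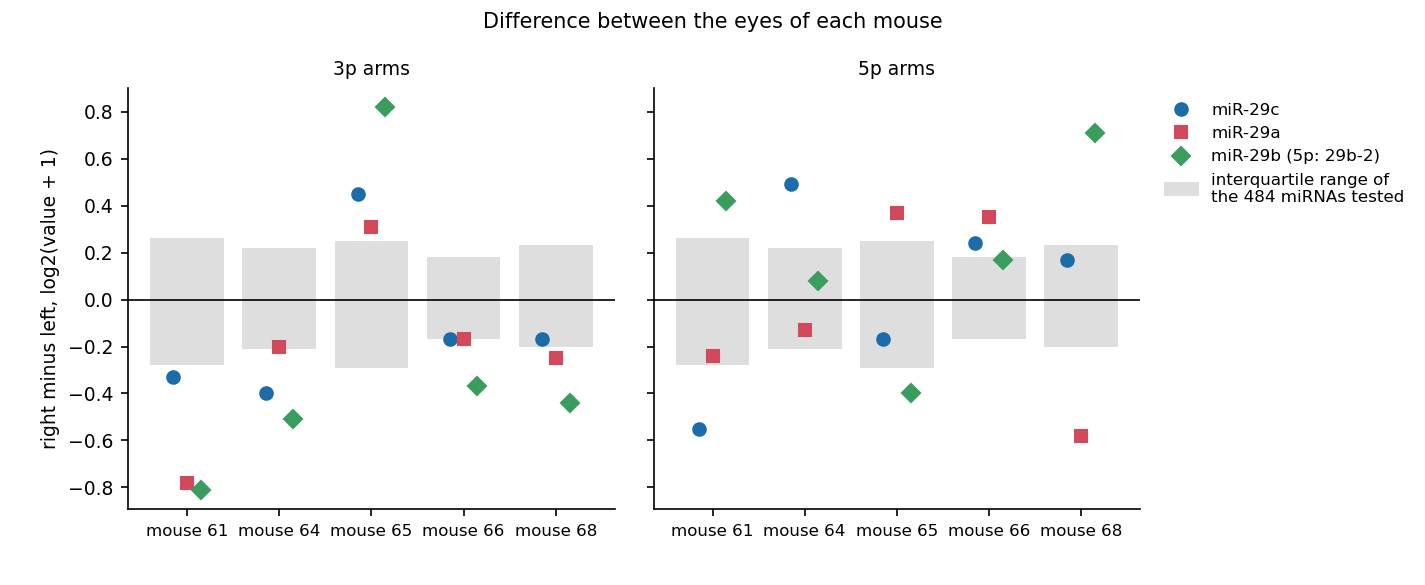
Right minus left on the log2(value + 1) scale in each mouse, for the 3p arms and for the 5p arms with a mean of at least 10; grey boxes are the interquartile range of the 484 miRNAs tested. The 3p arms lie below 0 in mice 61, 64, 66 and 68 and above 0 in mouse 65, and the 5p arms lie on both sides of 0 in every mouse except 66.

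The 5p arms differed in how they moved with the 3p arms of their hairpins. miR-29b-2-5p ran against miR-29b-3p in all 5 mice, with differences of 0.42, 0.08, -0.40, 0.17 and 0.71 in mice 61, 64, 65, 66 and 68. miR-29c-5p had -0.55, 0.49, -0.17, 0.24 and 0.17 and had the sign of miR-29c-3p in mouse 61 alone. miR-29a-5p had -0.24, -0.13, 0.37, 0.35 and -0.58 and had the sign of miR-29a-3p in mice 61, 64, 65 and 68.

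The size of the 3p estimates depended on single mice. Without mouse 65, the log2 fold change was -0.53 (SE 0.10) for miR-29b-3p, -0.35 (SE 0.12) for miR-29a-3p and -0.27 (SE 0.06) for miR-29c-3p. Their unadjusted limma p values were then 0.00221, 0.0261 and 0.00411 and their adjusted ones 0.241, 0.336 and 0.241, and 62 of the 484 miRNAs were at an unadjusted p under 0.05. Every mouse was left out in turn, and mouse 65 is singled out because of its direction, so these values describe the other 4 mice and are no independent test. Leaving out mouse 61 instead brought the 3p arms to between -0.12 and -0.08, and leaving out mouse 64 brought miR-29c-3p to -0.06. For miR-29b-2-5p the log2 fold change was 0.35 without mouse 65 and 0.07 without mouse 68.

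Other measures of mouse 65 also stood apart. The lens and cornea miRNA miR-184-3p was at 22384 normalised reads in its right retina, against 988 in its left, and between 1898 and 2117 in the other right and 1483 and 2039 in the other left retinas. The list of lens and cornea markers held 2 miRNAs, both detected in every library, and their sum ranged from 1922 to 22409 in right and from 999 to 2073 in left retina. The second of them, miR-205-5p, was at 25.6 in the right retina of mouse 65 and 10.9 in its left, and between 21.2 and 49.4 in the other right and 29.3 and 38.5 in the other left retinas. The pigment epithelium list, 4 of 4 tested, summed to between 213349 and 220695 in right and 209905 and 224593 in left retina. Most of each sum was miR-204-5p, at 203500 normalised reads in all libraries, so the sums could vary little. miR-211-5p, the next most abundant, ranged from 9745 to 17043 in right and from 6309 to 20982 in left retina. In this list 3 miRNAs had fold changes above 0, and miR-204-5p could show no difference. Of the other cell type lists, 1 of 4 neuron and 0 of 2 skeletal muscle miRNAs tested had a fold change above 0. So did 1 of 3 erythroid, 1 of 4 connective tissue and 2 of 3 endothelial and mural cell miRNAs. Over all 484 miRNAs tested, 224 did. The skeletal muscle miRNAs tested were highest in the left retina of mouse 68. Of the 3 photoreceptor miRNAs, miR-182-5p and miR-183-5p each had 1 value in all libraries, so they could show no difference between the sides. The other, miR-96-5p, had a log2 fold change of -0.14. No miRNA of these lists passed. The part of these tissues in the miR-29 differences was not tested.

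The log2 differences also varied with the GC content of the miRNAs, with a slope that was below 0 in mouse 65 alone. The slope of the log2 difference, right minus left, over 424 miRNAs and per 10 points of GC content was 0.19 in mouse 61 and 0.12 in mouse 64. It was -0.17 in mouse 65, 0.06 in mouse 66 and 0.04 in mouse 68. miR-29b-3p has a GC content of 34.8%, miR-29c-3p of 36.4% and miR-29a-3p of 40.9%, against a median of 47.83% for the miRNAs tested. miR-29c-5p is at 50.0%, miR-29b-2-5p at 44.0% and miR-29a-5p, which is as poor in GC as miR-29c-3p, at 36.4%. With the linear GC trend of each library removed, the log2 fold changes were -0.19 for miR-29b-3p, -0.18 for miR-29a-3p and -0.06 for miR-29c-3p. Without that step they were -0.26, -0.22 and -0.13. The part of GC content in the miR-29 differences was not tested.

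The 3p arms and miR-29c-5p differed more, on average, between the eyes of a mouse than between mice. For miR-29b-3p the mean absolute difference was 0.59 between the eyes of a mouse and 0.38 between different mice on the same side, on the log2(value + 1) scale. The corresponding values were 0.34 and 0.24 for miR-29a-3p and 0.31 and 0.24 for miR-29c-3p, and the medians over all 484 miRNAs were 0.28 and 0.31. miR-29c-5p had 0.32 between eyes and 0.27 between mice. The opposite order held for miR-29b-2-5p, with 0.36 between eyes and 0.52 between mice, and for miR-29a-5p, with 0.34 and 0.39. Over the 10 libraries the SD of the log2 values was 0.20 for miR-29c-3p, 0.24 for miR-29a-3p and 0.35 for miR-29b-3p, with a median of 0.28 for all miRNAs tested. miR-29b-2-5p had the largest SD of the tested members, 0.45, which 16.3% of the 484 miRNAs exceeded.

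Profiles over the 10 libraries were compared by the root-mean-square difference of the centred log2 values, among miRNAs whose SD was within 1.5 times that of the member. The 10 libraries share 5 animals, so this is a description. miR-29a-3p and miR-29b-3p were close to each other, at 0.16, and 13 of 252 miRNAs were closer to miR-29a-3p. The nearest to miR-29a-3p were miR-369-3p (0.08), miR-190a-5p (0.11) and miR-136-5p (0.11), of which miR-369-3p and miR-136-5p belong to the imprinted Dlk1-Dio3 region. The share of that region among all miRNAs tested was not counted. The nearest to miR-29b-3p were miR-136-5p (0.14), miR-153-3p (0.16) and miR-33-5p (0.16), against a median of 0.46 for the 225 compared. The GC content of these 5 miRNAs was between 22.7% and 42.9%.

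miR-29c-3p lay nearest to both arms of miR-181c, miR-181c-3p (0.09) and miR-181c-5p (0.13), and to let-7f-2-3p (0.12), with a median of 0.29 over 227 miRNAs. miR-181c-3p has a GC content of 59.1%, above the median of the miRNAs tested, miR-181c-5p of 45.5% and let-7f-2-3p of 38.1%. Between miR-29c-3p and miR-29a-3p the difference was 0.19, and 26 of 229 miRNAs were closer to miR-29c-3p. miR-29b-2-5p, which shares its primary transcript region with miR-29c, was at 0.48 from miR-29c-3p, and all 229 compared were closer, but its own SD lies outside that range. Its own nearest profiles were miR-222-3p (0.18), miR-879-3p (0.22) and miR-339-3p (0.23), with GC contents of 52.2%, 50% and 73.9%. The nearest to miR-29a-5p were miR-3963 (0.15), let-7f-2-3p (0.19) and miR-324-5p (0.20), with a median of 0.43 over 245 miRNAs. Those nearest to miR-29c-5p were miR-495-3p (0.19), miR-378d (0.20) and miR-96-3p (0.20), with a median of 0.30 over 242. Of these, miR-495-3p also lies in the Dlk1-Dio3 region. GC content was between 38.1% and 60.9% for the neighbours of miR-29a-5p and between 36.4% and 54.5% for those of miR-29c-5p.

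Other miRNAs linked to extracellular matrix and fibrosis gave no common direction. Of the 23 listed, 19 were tested, and 8 had a fold change above 0, 10 below and 1 at 0, with 0 past the threshold by limma and a median log2 fold change of -0.03, against -0.01 for all tested. The most abundant was miR-26a-5p, at 280072 normalised reads in every library. miR-101a-3p followed with 25522 ± 4427 normalised reads in right and 28456 ± 4216 in left retina (SD, n = 5), a log2 fold change of -0.16. miR-21a-5p, which rises in fibrotic tissue and is placed opposite to miR-29 in that setting, was at 9001 ± 683 in right and 9995 ± 422 in left retina (SD, n = 5), so its fold change of -0.15 had the sign of the miR-29 3p arms.

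No mRNA was measured in these libraries, and the link to matrix genes can be shown only in sequence. The reverse complement of the shared 3p seed is TGGTGCT, and it was searched on the sense strand of the longest 3′ UTR of each gene in GENCODE vM21, overlapping matches included. It occurs in 13 of 16 matrix genes, 6 of 6 genes of DNA methylation and demethylation, and 5 of 5 cell death genes, against 13.1% of 20997 genes. These genes were listed because they are known or proposed targets of the family, so their counts are no finding, and 3′ UTR length differed, with medians of 1038, 4364 and 3801 bases against 962. Per kilobase the matches numbered 1.1, 1.08 and 0.487, against 0.106 over all 3′ UTRs. Col1a2, Sparc and Hspg2 had none in the transcripts used.

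A match in each of 5 genes is shown to set the sites beside the seed, with the bases that pair to it in capitals. The sites lie in the 3′ UTRs of Col1a1 (chr11:94952524-94952545, plus strand) and Col3a1 (chr1:45348968-45348989, plus strand), which encode chains of fibrillar collagens, Col4a1 (chr8:11199761-11199782, minus strand), a chain of basement membrane collagen, Eln (chr5:134703736-134703757, minus strand), elastin, and Mcl1 (chr3:95661845-95661866, plus strand), an inhibitor of cell death, all on GRCm38.
Col1a1: tgggaaggaatttcTGGTGCTa
Col3a1: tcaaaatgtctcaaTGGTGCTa
Col4a1: ccaccgtcacaacaTGGTGCTa
Eln: gacctcatcaacgtTGGTGCTa
Mcl1: tagagtcttaaccaTGGTGCTa

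Each of these 5 matches is followed by an A, the form of site with 8 bases that miRNAs usually repress most. Not all matches have this form. It occurs in 10 of 16 matrix genes, 5 of 6 genes of DNA methylation and demethylation and 3 of 5 cell death genes, against 599 of 20997 genes. Elastin held 3 matches, Dnmt3a, a de novo DNA methyltransferase, held 5, and Tet3, which oxidises methylated cytosine, held 8. The match is common to miR-29a-3p, miR-29b-3p and miR-29c-3p and does not tell them apart.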

How the data were processed

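Per the labels' protocols, small RNA was isolated from single retinas, and 50 ng per sample went into TruSeq Small RNA libraries. Partek, Bowtie, GRCm38 and mm10 appear in the submitters' processing notes, while the trimming and the normalisation method were not given in the sources used here. As deposited by the authors, the signal (normalised read counts) is equal across libraries at 180 ranks above 0. The depth is unknown, so no counting error can be given. The table held 0 columns of other samples.

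From these, 484 of 1061 miRNAs (mean of at least 10) were put on the log2(value + 1) scale, on which changes of low miRNAs look smaller. limma 3.58.1 (R 4.3.3) fitted side and mouse, with a mean-variance trend and Benjamini-Hochberg adjustment (two-sided, threshold 0.05). Mouse was the block because both retinas of a number come from 1 animal, per the labels. The deviations of such pairs correlated by 0.0893 to 0.382. The fit was tested on simulated data. These had normal spread around the mean of each mouse and did not repeat the values shared by rank, and the outcome is not given here. Arm ratios and shares had exact sign-flip tests, or, without the block, an exact permutation of the side labels. Alternatives were other pseudocounts, filters and scaling, no trend, no block, a GC correction and leaving out each mouse.

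Members, lists and tests were chosen with earlier results of these data known. The rule named all members, the 3 nearest profiles of each and the 2 most abundant miRNAs of a list. Other miRNAs and the printed target sites were chosen after values were seen. RefSeq mature sequences (GRCm38.p6) matched 909 names, 424 (87.6%) of those tested.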

Additional observations from a re-analysis of the deposited data

Results flagged for a closer look

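Of 28 groups of 5 values examined (each member, arm ratio and share on each side), 1 held a value far from the rest, where chance gives about 1 in 20. The right retina of mouse 65 had 202 normalised reads of miR-29b-3p, against 137 to 155 in the other right retinas. The same library held 22384 normalised reads of miR-184-3p, and the left retina of mouse 65 had the lowest miR-29b-3p value of all libraries, 114.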

How the results depend on the processing

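In 148 of 158 recomputed values the direction and the side of the threshold were kept, and 0 miRNAs passed in either direction under all 13 alternatives, with between 5 and 62 at an unadjusted p under 0.05. The recomputed values include sign-flip tests, which cannot go below 0.05, so for these only the direction was open. Without the replicate block, arm ratios and shares were compared by permuting the side labels of the 10 libraries, which can go below 0.05. The adjusted p of that permutation test was 0.603 for each arm ratio and 0.508 for each share. The recomputed values also include mean levels, which have no direction and no test. Without the replicate block 0 passed, 13 were at an unadjusted p under 0.05, and no call on a member changed. The 3p fold changes were below 0 under all 13 alternatives. Leaving out a mouse gave log2 fold changes of -0.15 to 0.09 for miR-29a-5p and -0.08 to 0.18 for miR-29c-5p, so their sign depends on single mice, and the GC correction gave 0.02 for miR-29a-5p. Leaving out a mouse also moved the arm ratio difference over -1.07 to 0.19 for mir-29b-1 and -0.36 to 0.02 for mir-29c, and the share difference of miR-29a-3p over -2.38 to 0.00602 percentage points. With 4 mice the sign-flip test cannot go below 0.125. The causes were not tested. Median-ratio scaling left every mean level within 1 SD. It could change little, because the deposited totals were already nearly equal and most top ranks held a common value. The values of low members, miR-29b-1-5p above all, are limited by a depth that is unknown.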
